A study of Homo sapiens with 6 samples.

Results

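SRP19, SRP54, SRP72, SRP9 and SRP14 are 5 protein genes of the signal recognition particle. They were followed through the splice junctions listed inside a fixed window around each gene, on the gene's own strand. This gave 194 junctions of the 780566 in the whole series: 29 in SRP19, 48 in SRP54, 63 in SRP72, 36 in SRP9 and 18 in SRP14. The 5 genes were proposed because the choice between a pair of SRP19 acceptors was already known to differ between the groups. That choice is therefore given below as a description, without a test. The other 4 genes came in as partners of SRP19 in the same particle.

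The libraries were made from poly(A)+ RNA of K562, a human chronic myeloid leukaemia cell line, in 3 replicates per group. The wild-type group carried a wild-type U2AF1 knock-in and the other group carried U2AF1 S34F, a serine to phenylalanine substitution. U2AF1 pairs with U2AF2 and reads the AG at the 3′ end of an intron, the acceptor, and S34F is a recurrent change in myelodysplastic syndromes. The comparison asks at which acceptors and exons of these genes, and in which transcript levels, the mutant cells depart from wild type. The labels do not say whether the replicates of a group were separate cultures or clones, so that p-values measure the spread between these libraries, which may be technical. The mutant allele and markers of K562 were not analysed here.

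The signal recognition particle is a complex of proteins on a small RNA that recognises the signal sequence of a nascent secretory or membrane protein and brings its ribosome to the endoplasmic reticulum. SRP54 is the GTPase that binds the signal sequence, SRP19 binds the RNA and is needed for SRP54 to assemble on it, and SRP72 with SRP68 forms a scaffold of the same domain. SRP9 and SRP14 form a pair on the other end of the RNA, the Alu domain, which slows translation while the ribosome is being delivered. Mutations in SRP54 can cause neutropenia, and mutations in SRP72 can cause bone marrow failure.

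The libraries held between 18074706 and 39279169 uniquely mapped reads across a splice junction, S34F replicate 2 being the shallowest and S34F replicate 3 the deepest. Multi-mapped reads made up 6.57% to 7.14% of the spliced reads in wild type and 7.22% to 8.08% in S34F. A level is given as RPM, the reads of a junction per 1000000 unique spliced reads, and a share as the percentage of unique reads at a splice site. Positions are on hg19, counted from 1, and a site is named by the first or last base of its intron.

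SRP19 joined the 5′ splice site at position 112200430 of chromosome 5 (plus strand) to either of 2 annotated acceptors, at 112203068 and, 32 nt further downstream, at 112203100. The introns are 2639 and 2671 nt long. In wild type the downstream acceptor was used more often in every library: the upstream one took 47.6% of the pair's reads in replicate 1, 30.4% in replicate 2 and 43.9% in replicate 3. In S34F the upstream acceptor was the more used one in every library, with 72.1%, 72.7% and 60.7%. The groups did not overlap. The mean share was 40.6% ± 9.0 in wild type (SD, n = 3) and 27.9 percentage points higher in S34F, at 68.5% ± 6.8 (SD, n = 3).

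The depth at this pair was 239 to 391 reads per library in wild type and 330 to 661 in S34F. The 95% Clopper-Pearson interval, which covers counting error only, was 42.5% to 52.7% in the highest wild-type library and 56.8% to 64.4% in the lowest S34F library. Wild-type replicate 2 lay below the intervals of the other wild-type libraries. S34F replicate 3 likewise lay below those of the other S34F libraries, which began at 67.6%. The spread within each group was therefore larger than counting error.

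The levels of the 2 SRP19 junctions differed in opposite directions. The junction to the upstream acceptor stood at 7.31, 4.65 and 5.42 RPM in wild type and at 13.3, 13.3 and 10.2 in S34F, with a ratio of means of 2.12. The junction to the downstream acceptor stood at 8.06, 10.6 and 6.91 in wild type, against 5.16, 4.98 and 6.62 in S34F. For the latter the lowest wild-type and the highest S34F library were close to each other. Their sum was 14.3 ± 1.7 RPM for wild type and 17.9 ± 0.90 RPM for S34F, over 3 libraries each.

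**Figure D1:**
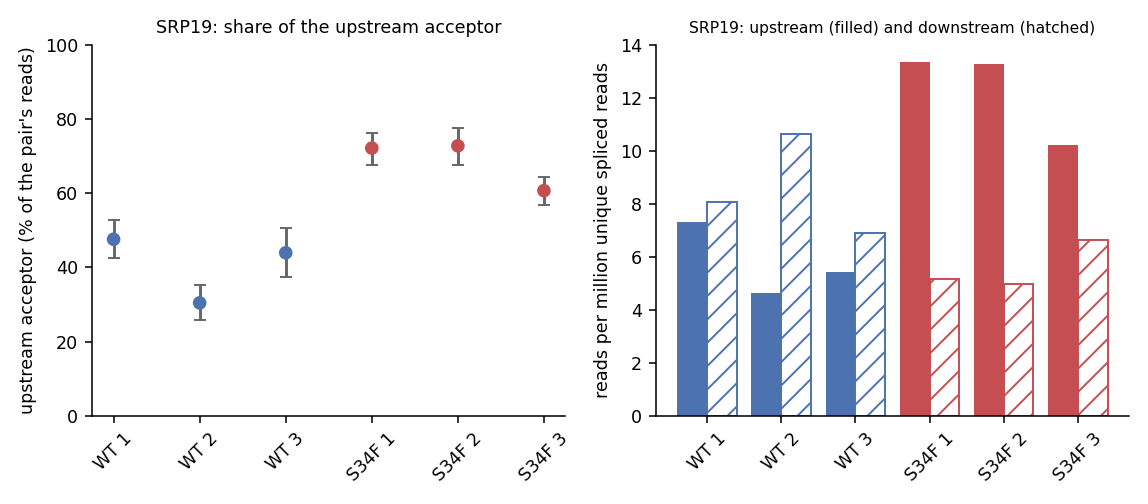
The left panel plots the share of the upstream SRP19 acceptor (percent of the pair's reads) per library with its 95% Clopper-Pearson interval, and the right panel plots RPM to the upstream (filled) and downstream (hatched) acceptor. The 3 S34F libraries (red) lie between 60.7% and 72.7%, above the 3 wild-type libraries (blue), which reach at most 47.6%.

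The remaining SRP19 introns were used in nearly one way. The 3 tested junctions upstream of the pair had log2 fold changes of 0.13 to 0.18 in S34F, none of which passed (edgeR adjusted p from 0.694 to 0.782). Another acceptor of the same 5′ splice site, at 112227299, was annotated too and took 0 to 5 reads per library. Skipping of the 112 nt exon that ends at this 5′ splice site was seen at unannotated junctions: the one from 112200226 to 112203068 had 0 reads in all wild-type libraries and 3, 3 and 0 in S34F. The normal junction into that exon, from 112200226 to 112200317, took at least 99.6% of its 5′ splice site in every wild-type library and 97.6% to 99.3% in S34F. The reads set against it include these skips to the upstream acceptor of the pair, so that this difference is given without a test. Unannotated junctions held 0.401% ± 0.17 of the SRP19 reads, those of the pair included, in wild type and 0.892% ± 0.25 in S34F. Reads of the pair and of its upstream acceptor enter this share, so that it is given without a test. The most-read of these unannotated junctions had 6 reads in all.

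Among all competing acceptor pairs in the table, the pairs whose shares came nearest to those of SRP19 were picked by the root mean square difference over the 6 libraries. The nearest, on the minus strand of chromosome 5 with acceptors at 88018743 and 88018647, differed from SRP19 by 3.82 percentage points. Its upstream acceptor went from 42.8% to 65.5%, on 25 to 91 reads per library. A higher share in S34F was built into this choice of pairs, since the S34F libraries were among the 6. The next were on the plus strand of chromosome 7 (acceptors 143078649 and 143078652, difference 7.94) and on the plus strand of chromosome 1 (acceptors 2520360 and 2520392, difference 8.01). These had 40 to 162 and 54 to 322 reads per library, and the downstream acceptor on chromosome 7 was unannotated. The chromosome 1 acceptors also lie 32 nt apart. The genes at these positions were not analysed here.

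SRP54, the signal sequence-binding GTPase, was spliced in 1 main way. Of its 21 annotated junctions, 15 had at least 20 reads in every library, and these stood at 5.63 to 10.96 RPM in wild type and 4.65 to 11.1 in S34F. Skipping was found at 3 exons of chromosome 14 and stayed a small share in both groups. The 92 nt exon from 35468764 to 35468855 had skipping shares of 1.99%, 0.571% and 2.01% in the wild-type libraries, against 1.94%, 0% and 0.488% under S34F. The 85 nt exon from 35470142 to 35470226 had 0.541%, 1.41% and 2.11% against 0.389%, 0.826% and 0.727%. For the 171 nt exon from 35492116 to 35492286 the values were 0.995%, 1.36% and 3.45% against 0.746%, 1.38% and 2.65%. The groups overlapped at all 3 exons, whose edgeR adjusted p-values ran from 0.465 to 0.911. These shares rest on 0 to 10 skipping reads per library.

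SRP72, the scaffold protein, had 18 of its 20 annotated junctions at 20 or more reads in every library. Several exon skips were seen in the gene, which lies on chromosome 4. A skip from 57342869 to 57349304 leaves out the segment from 57344545 to 57344815, which holds a pair of exons and the intron between them. It took 1.49%, 1.19% and 1.34% of its 5′ splice site in wild type (8, 7 and 7 reads) and 0.383%, 0.279% and 0.622% in S34F (2, 1 and 5 reads). All S34F libraries lay below all wild-type libraries, but the difference did not pass (log2 odds -1.48, SE 0.61, edgeR adjusted p = 0.169). Skipping of the 132 nt exon from 57349305 to 57349436, at 1.5% ± 0.67 in wild type and 1.36% ± 0.35 in S34F, overlapped between the groups. The 32 nt exon from 57342837 to 57342868 was left out in at most 0.702% of the reads of any library. Other minor junctions were an acceptor at 57360114, with 0.393% ± 0.16 of its 5′ splice site in wild type and 0.113% ± 0.11 in S34F (no overlap, edgeR adjusted p = 0.420), and an unannotated 5′ splice site at 57340853, with 26 reads in all and overlapping shares.

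SRP9, the first of the Alu-domain pair, had several minor forms. In its main form a 69 nt exon (225971002 to 225971070, plus strand of chromosome 1) was joined straight to the last exon at 225976941. An optional 124 nt exon, from 225974564 to 225974687, lay between them. An unannotated acceptor at 225975672 was reached from both the 69 nt and the 124 nt exon. The last exon also had an unannotated acceptor at 225976960, 19 nt downstream of the annotated one.

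The unannotated SRP9 acceptor at 225975672 had the lowest adjusted p-values among the members outside the SRP19 pair. From the 69 nt exon it took 1.56%, 2.65% and 3.24% of the reads in wild type and 0.415%, 0.710% and 0.190% in S34F. From the 124 nt exon it took 5.13%, 12.5% and 14.3% in wild type, against 2.42%, 1.86% and 1.01% in S34F. In both choices every S34F library lay below every wild-type library, and wild-type replicate 1 was the closest to S34F. From the 69 nt exon the wild-type mean was 2.48% ± 0.86 and the S34F mean 0.438% ± 0.26, which is -2.61 in log2 odds with a standard error of 0.48 and an edgeR adjusted p of 0.00328. From the 124 nt exon the means were 10.6% ± 4.9 and 1.76% ± 0.71, which is -2.67 in log2 odds with a standard error of 0.55 and an edgeR adjusted p of 0.00643 (SD, n = 3 each).

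Both differences passed the adjusted p-value threshold of 0.05 but stayed under the minimum of 10 percentage points that a call also required. Neither passed with DESeq2 (adjusted p of 0.0554 and 0.0732), with limma on log2 odds (0.103 and 0.104) or with edgeR without S34F replicate 3 (0.0810 and 0.105). Without wild-type replicate 1 the difference from the 124 nt exon was -11.6 percentage points and was called. Summed over both exons and the remaining unannotated junction to it, the acceptor had 42, 84 and 91 reads in wild type and 13, 11 and 7 in S34F. As a level this was 3.24 ± 1.5 against 0.447 ± 0.23 RPM, a ratio of 7.25. In all, 248 reads entered at this acceptor, and separately 1 read was listed at a junction that leaves the stretch between it and the next annotated acceptor at 225976735.

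Inclusion of the optional SRP9 exon was lower in the S34F libraries too. Of the reads leaving the 69 nt exon, 16.8%, 16.5% and 20.9% went to the 124 nt exon in wild type and 14.0%, 9.67% and 10.9% in S34F. The groups did not overlap, but the difference did not pass (log2 odds -0.76, SE 0.32, edgeR adjusted p = 0.172). The direct junction to the last exon took 76.2% ± 2.1 in wild type and 84.0% ± 1.9 in S34F (log2 odds 0.71, SE 0.31, edgeR adjusted p = 0.191). From the 124 nt exon the annotated last acceptor took 83.5% ± 3.3 and 92.8% ± 1.7, with an edgeR adjusted p of 0.0559.

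In the form that skips from the 69 nt exon to the unannotated acceptor, the 124 nt exon was called as a cassette exon. Its inclusion was 85.1%, 78.0% and 79.4% in wild type, against 94.6%, 87.5% and 96.7% in S34F, without overlap (log2 odds 1.80, SE 0.50, edgeR adjusted p = 0.0403). The skipping reads of this event, 25, 45 and 41 against 6, 8 and 4, are those of the unannotated acceptor described above. Its inclusion value averages all reads into the exon, most of which go on to other acceptors, with those from the exon to this acceptor. Among the reads that reached the unannotated acceptor, the 124 nt exon supplied 46.5% ± 8.4 in wild type and 41.3% ± 13.4 in S34F, which overlapped. The call did not hold with DESeq2 (adjusted p = 0.191), limma (0.148), the replicate number as a block (0.0864), no low-count filter (0.156) or multi-mapped reads added (0.0591). It also ended when any library but wild-type replicate 1 was left out, with adjusted p-values from 0.0630 to 0.233. Against the skip to the annotated last exon, inclusion of the same 124 nt exon was 19.2% ± 3.05 in wild type and 13.6% ± 2.5 in S34F, which did not pass (edgeR adjusted p = 0.282). Against the skip to the annotated acceptor at 225976735 its inclusion was lower in all S34F libraries, at 88.7%, 91.8% and 89.2% compared with 96.5%, 94.6% and 97.1% in wild type. That difference, on 4 to 14 skipping reads per library, did not pass either (log2 odds -1.47, SE 0.51, edgeR adjusted p = 0.0908). This inclusion value, too, averages in reads into the exon that go on to other acceptors. From the 124 nt exon to 225976735 there were 1, 1 and 1 reads in wild type and 2, 2 and 3 in S34F. The 69 nt exon supplied 84.1% ± 4.5 of the reads to 225976735 in wild type and 80.1% ± 7.9 in S34F, which overlapped.

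The choice between the last-exon acceptors of SRP9 did not separate the groups. The downstream one took 5.30%, 3.80% and 2.75% of the reads to both in wild type and 3.88%, 3.77% and 4.77% in S34F, on 35 to 104 reads per library. Tested as competing pairs, the acceptors had edgeR adjusted p-values of 0.866 from the 69 nt exon and 0.703 from the 124 nt exon. Partners of the downstream acceptor varied between libraries: the 124 nt exon supplied 26.7%, 20.6% and 42.9% of its reads in wild type and 27.1%, 9.09% and 12.5% in S34F, which overlapped. The first exon was joined to it directly in 6.98% to 11.1% in wild type and 10.2% to 18.3% in S34F. The 69 nt exon supplied 60.6% ± 10.6 of the reads to the downstream acceptor in wild type and 70.5% ± 8.5 in S34F. At the annotated last acceptor the 69 nt exon supplied 79.5% ± 3.6 and 84.3% ± 2.8, and the 124 nt exon 18.9% ± 3.5 and 15.0% ± 2.6. From the 124 nt exon the downstream acceptor took 5.27% ± 1.8 and 4.13% ± 1.5. The groups overlapped in all of these.

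**Figure D2:**
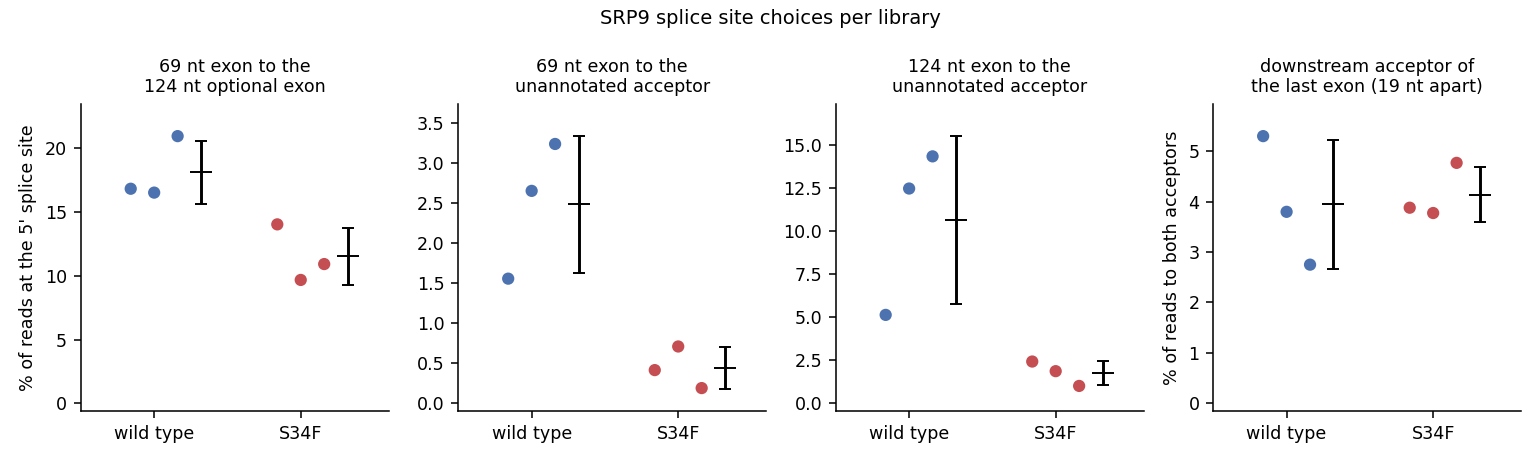
Each panel plots one SRP9 splice site choice as percent of unique reads, with 1 point per library and the mean and SD of 3 libraries as a bar. The unannotated acceptor is lower in all S34F libraries (red) than in all wild-type libraries (blue) from both exons, while the downstream acceptor of the last exon overlaps between the groups.

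SRP9 reads were the hardest to place. Multi-mapped reads made up 30.7% of all reads at its junctions, compared with 0.925% to 5.61% in the other 4 genes. They sat on the junctions of the main form, so that counting unique reads raises the share of the optional forms. With multi-mapped reads added, the share of the 124 nt exon after the 69 nt exon was 12.6% ± 1.8 in wild type and 8.0% ± 1.6 in S34F. The multi-mapped share of SRP9 was 30.8% ± 1.9 in wild type and 30.6% ± 0.68 in S34F and overlapped between the groups. The unannotated share of SRP9 reads, 4.96% ± 0.30 in wild type and 3.07% ± 0.37 in S34F, did not overlap. Its two-sided exact permutation p was 0.1, the smallest that 3 against 3 libraries allow. An adjustment over the 5 genes would draw on the SRP19 share, which is given without a test, so that no adjusted value is given. The reads of the unannotated acceptor at 225975672 are part of this share, at 3.24 RPM in wild type and 0.447 RPM in S34F.

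SRP14, the partner of SRP9, has its junctions on the minus strand of chromosome 15. A 47 nt optional exon, from 40329510 to 40329556, was included in 2.48%, 1.78% and 1.67% of the reads in wild type and in 2.96%, 3.46% and 3.97% in S34F. All S34F libraries lay above all wild-type libraries, and the difference did not pass (log2 odds 0.83, SE 0.35, edgeR adjusted p = 0.156). Both junctions of this exon were annotated, with levels of 1.73 ± 0.30 and 1.86 ± 0.34 RPM in wild type and 3.04 ± 0.30 and 3.23 ± 0.13 in S34F. Their log2 fold changes were 0.78 (SE 0.23, edgeR adjusted p = 0.183) and 0.77 (SE 0.23, edgeR adjusted p = 0.186). A shorter form of the exon, 40 nt long, used an acceptor 7 nt downstream with 1, 1 and 3 reads in the wild-type libraries and 0, 3 and 6 in the S34F ones. The 73 nt exon from 40331077 to 40331149 was skipped in at most 0.528% of the reads of any library.

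**Figure D3:**
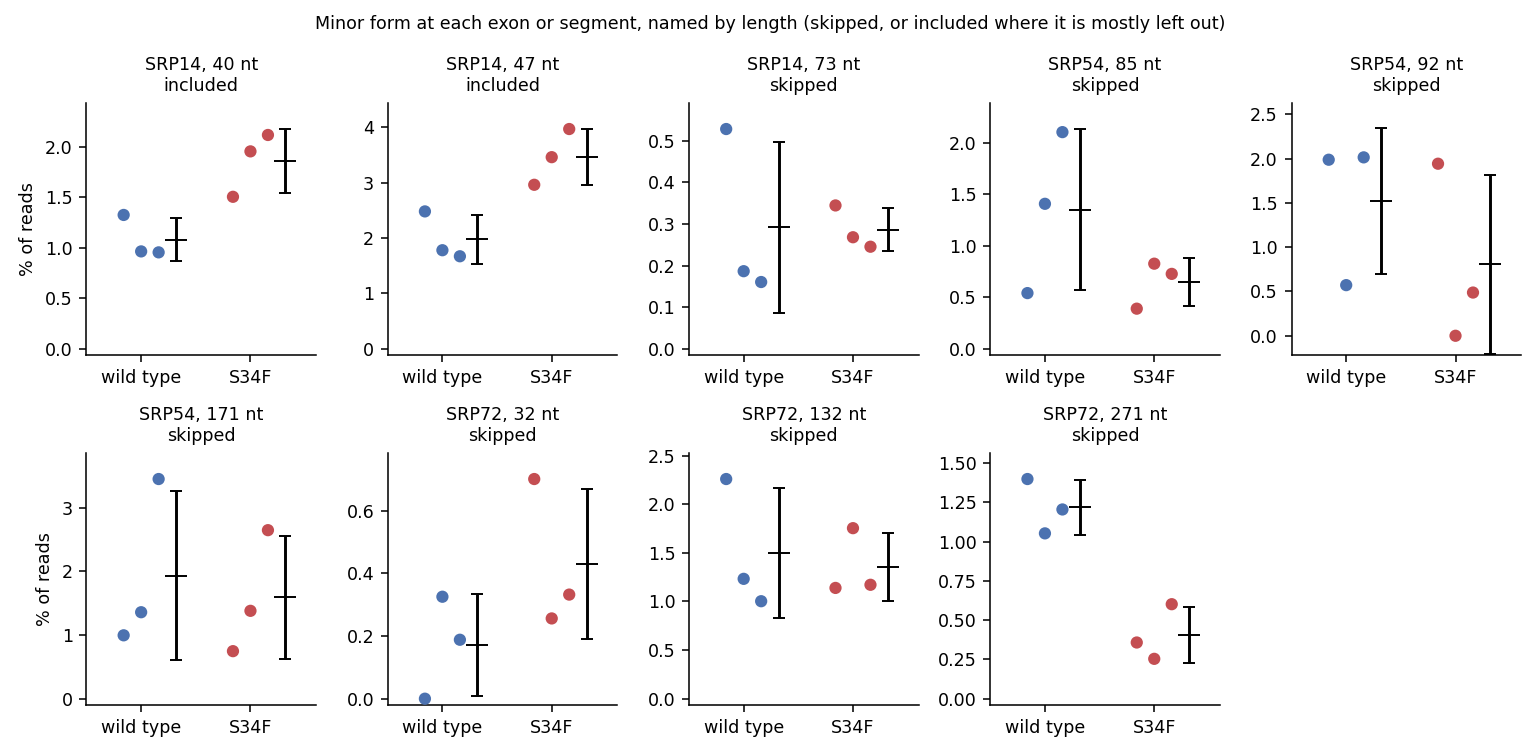
Each panel plots the minor form at 1 exon or segment of SRP14, SRP54 or SRP72, named by its length in nt, as percent of reads per library with the mean and SD of 3 libraries. The S34F libraries (red) lie above the wild-type libraries (blue) for inclusion of the 47 nt SRP14 exon and below them for skipping of the 271 nt segment of SRP72; neither passed the test. The 40 nt panel averages in the junction that form shares with the 47 nt one, and its own acceptor overlaps between the groups.

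Counted over the members outside the SRP19 5′ splice site, few splice choices were called. In acceptor usage edgeR called 0 of 33 member junctions, where 2.12% of all 51522 junctions tested were called. An unadjusted p under 0.05 was seen at 10 of the 33 (30.3%, against 19.9% of all junctions). Both counts include the SRP19 junction from 112200226 to 112200317, whose competing reads include skips to the pair's upstream acceptor. DESeq2 and limma called 0 of the 33, and 130 and 0 of all. Without the minimum difference 2 passed, both at the SRP9 acceptor, against a background of 4.64%. Among the competing acceptors 0 of 3 pairs were called by edgeR (2.85% of 5684), with 0 at an unadjusted p under 0.05 (17.3% of all pairs). DESeq2 and limma called 0 of the 3, and 36 and 10 of all. Without the minimum difference 0 passed, against 6.53% of all pairs. With 3 pairs, counts of 0 do not set the members apart from these shares. In the choice of 5′ splice site edgeR called 0 of 27 junctions (0.934% of 48269), with 6 (22.2%, against 17.3% of all) at an unadjusted p under 0.05. DESeq2 and limma called 0 of the 27, and 44 and 0 of all. Without the minimum difference 0 of the 27 passed, against 2.04% of all. For cassette exons 1 of 18 was called (2.5% of 19202), and it was the 1 that passed without the minimum difference, against 5.5% of all. An unadjusted p under 0.05 was seen at 7 of the 18 (38.9%, against 23.7% of all), some of which share junctions with each other. DESeq2 and limma called 0 of the 18, and 80 and 0 of all.

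Groups that did not overlap were seen at 15 of the 33 junctions in acceptor usage, compared with 25.2% of all junctions tested. In the choice of 5′ splice site it was 6 of 27 against 22.4%, for cassette exons 8 of 18 against 29.2%, and for competing pairs 0 of 3 against 21.1%. The 15 share reads with each other: 8 of them belong to SRP9, 4 to SRP72, 2 to SRP14 and 1 to SRP19, and junctions of a site with a pair of partners mirror each other. The SRP19 one is the junction from 112200226 to 112200317, set against reads that include skips to the pair's upstream acceptor. The median absolute difference in acceptor share was 0.570 percentage points over the 33 junctions and 1.48 over all junctions tested.

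The level of the transcripts was compared by the summed junction reads of each gene, the SRP19 pair included. SRP19 stood at 39.5, 40.6 and 33.3 RPM in wild type and at 47.2, 44.9 and 42.0 in S34F, the reads of the pair being part of these sums, so that they are given without a test. Without the pair SRP19 stood at 24.1, 25.3 and 21.0 RPM in wild type and 28.7, 26.7 and 25.2 RPM under S34F, where the lowest S34F library lay below wild-type replicate 2. SRP72 stood at 486, 527 and 610 in wild type, against 499, 426 and 434 in S34F, where S34F replicate 1 lay above wild-type replicate 1. SRP9 was at 134 ± 6.9 in wild type and 120 ± 10.4 in S34F, SRP54 at 125 ± 20.5 and 123 ± 23.6, and SRP14 at 314 ± 11.9 and 315 ± 23.2 (SD, n = 3 each); the groups overlapped in all of these. Two-sided exact permutation p-values were 0.2 for SRP19 without the pair, for SRP72 and for SRP9, 0.8 for SRP14 and 1.0 for SRP54, and at least 0.333 after adjustment over the 5 genes. In bulk RNA, fewer cells with a transcript and less of it per cell cannot be told apart.

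**Figure D4:**
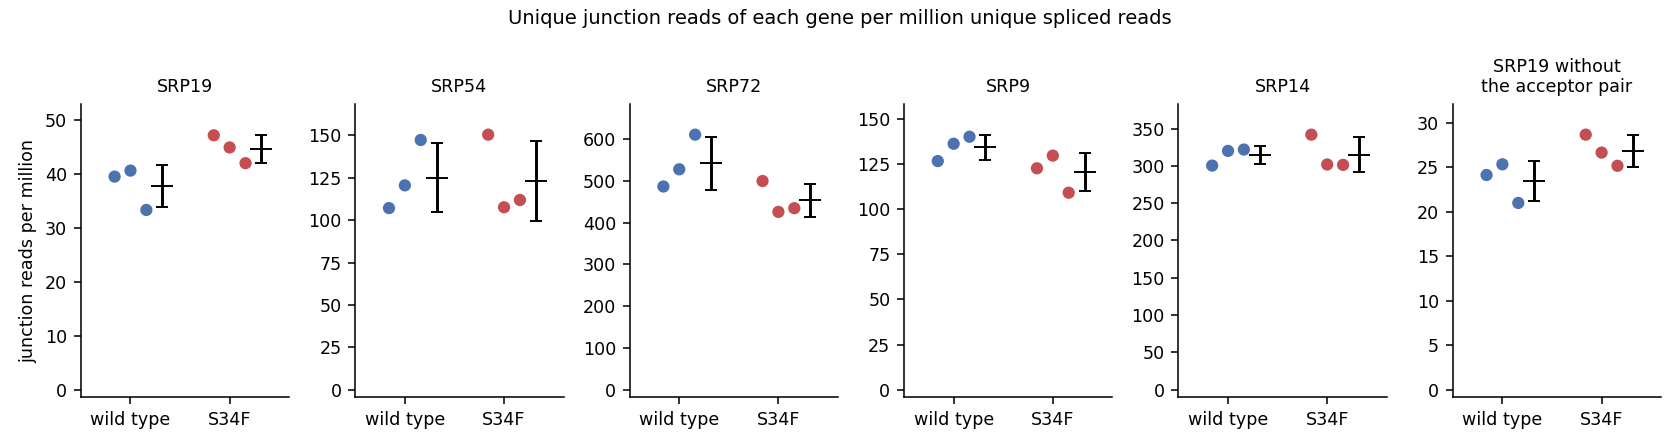
Unique junction reads of each gene in RPM, with 1 point per library and the mean and SD of 3 libraries as a bar. The first SRP19 panel holds the reads of the acceptor pair the gene was chosen for; without them, in the last panel, the S34F libraries (red, 25.2 to 28.7) overlap the wild-type libraries (blue, 21.0 to 25.3), as they do in the other 4 genes.

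Tested one by one, 47 annotated member junctions outside the SRP19 pair gave 0 calls with edgeR, where 0.203% of 113065 junctions were called. An unadjusted p under 0.05 was reached by 5 of them (10.6%, against 13.7% of all). The groups did not overlap in RPM at 9 of the 47 (19.1%), with S34F below at 6 and above at 3. Of all junctions tested, 8.75% lay below and 9.01% above without overlap. DESeq2 called 1, the SRP9 junction into the 124 nt exon, and 1.16% of all. Its edgeR log2 fold change was -0.81 (SE 0.20, adjusted p = 0.115). The SRP72 junctions had the most even pattern: all 18 had log2 fold changes below 0, from -0.39 to -0.08 with a median of -0.27, while the median over all junctions tested was 0.01. In 4 of the 18 the S34F libraries all lay below the wild-type libraries, and 8.75% of all junctions did so. These 18 are reads of the same transcripts and count as 1 observation of the gene, whose level overlapped between the groups. In SRP54 there were 11 junctions below and 4 above 0, with a median of -0.04.

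**Figure D5:**
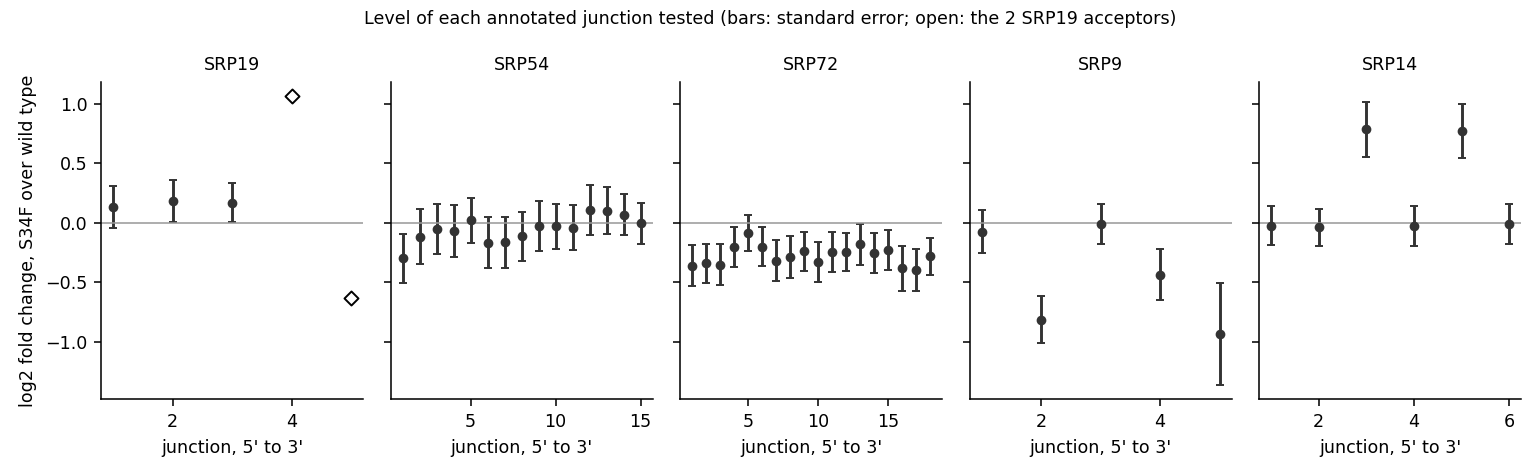
Log2 fold change of each annotated junction, S34F over wild type, in order along the gene; bars are standard errors, and the open symbols are the 2 SRP19 acceptors, shown without a test. The SRP72 junctions all lie below 0, and the junctions furthest from 0 are those of the SRP19 pair, the optional exons of SRP9 and SRP14 and a low-count SRP9 junction.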

How the data were processed

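Each library came with 1 junction table in the layout of the STAR aligner. STAR and hg19 are named in the submitters' processing notes; versions, annotation and junction filters were not given in the sources used here. The deposited values are raw counts of uniquely mapped and of multi-mapped reads per junction, not normalized, per the file layout, with the largest overhang in nt beside them.

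The 6 tables were joined by position, and a missing junction was counted as 0. Junctions with a canonical motif and unique counts entered 4 classes of event: acceptor usage, 5′ splice site usage, pairs of acceptors at most 100 nt apart, and cassette exons of at most 500 nt. Exon inclusion takes the mean of the 2 inclusion junctions as a share of itself and the skipping reads. Events with under 20 reads in any library, or under 10 on either side in all, were not tested. Each class was fitted over the whole table with edgeR 4.0.16 (R 4.3.3) quasi-likelihood tests, with a term per library, the count type and its change under S34F; a call needed a Benjamini-Hochberg adjusted p under 0.05 and group means at least 10 percentage points apart. Junction levels were tested with edgeR and TMM scaling over annotated junctions. Alternatives used DESeq2 1.42.0 and limma 3.58.1. Tables were handled with Python 3.11.15 and pandas 2.3.3, and the scripts were tested on simulated data.

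The genes, lists and rules were chosen with earlier results of these data known. Named were all 5 genes, every called event, and every partner with a mean of at least 5% of a site's reads in either group. Such a site needed at least 20 reads in every library. Junctions of the other strand inside the windows, with 3578 reads in the SRP19 window and at most 6 in the others, were left out. Replicate numbers did not pair the samples. Splice site sequences, and other genes of the secretory pathway, were not analysed here.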

Additional observations from a re-analysis of the deposited data

How the results depend on the processing

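Of 168 alternative values and counts, 151 stayed within the replicate spread or within 1.5 times the count and 17 moved. Uncalled differences near 0 changed sign: the SRP54 level, -1.67 RPM as reported, in 3 alternatives (4.04 to 9.49), the SRP14 level, 0.906 RPM as reported, in 4 (-12.5 to -1.88), and the SRP54 unannotated share, -0.029 points as reported, in 2 (0.054 to 0.071). The SRP19 share differed by 25.7 to 31.8 percentage points when single libraries were left out, except for 22.8 without wild-type replicate 2. All 46 alternatives of the gene levels stayed within the spread, among them SRP19 without the pair's reads (3.34 RPM against 6.88), chosen after seeing the data, and the counts of called pairs and 5′ splice sites were 0 throughout. Acceptor calls among the members, 0 as reported, were 2 with no minimum difference and 0 to 2 when single libraries were left out. The 1 cassette call went to 0 with a minimum of 20 points, with DESeq2, with limma, with the replicate number as a block, with no low-count filter and with multi-mapped reads, and ranged from 0 to 2 when single libraries were left out. Junction level calls, 0 as reported, were 1 with DESeq2 and 1 with no low-count filter. The unannotated share of SRP9 differed by -1.89 points, and by -1.27 with multi-mapped reads, which sat on the annotated junctions of its main form. The cause of the difference between the groups was not tested. Over the whole table, acceptor calls numbered 1092 as reported, 130 with DESeq2, 0 with limma (9648 at an unadjusted p under 0.05), 495 with no low-count filter, 681 with at least 50 reads and 77 to 1932 when single libraries were left out, the lowest without S34F replicate 3. Cassette calls were 481, against 80 with DESeq2, 0 with limma (4265 unadjusted), 215 with the replicate block, 292 with at least 50 reads and 0 to 1051 without single libraries. Pair calls were 162, against 36 with DESeq2, 10 with limma, 95 with no low-count filter and 92 with at least 50 reads. Calls at 5′ splice sites were 451, against 44 with DESeq2, 0 with limma (7794 unadjusted), 208 with no low-count filter and 4 to 1208 without single libraries. Junction level calls were 229, against 1310 with DESeq2, 380 with library size only, 50 with the replicate block, 5134 with no low-count filter and 0 to 608 without single libraries. Same-numbered libraries did not deviate together: their correlations were -0.086, -0.023 and -0.036 in acceptor usage and -0.18, -0.14 and -0.016 in junction levels, so the replicate block was kept as an alternative. Read depth limits the exon skips, which rest on few reads.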
